A study of Arabidopsis thaliana with 24 samples.

Results

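Starch sheath cells of Arabidopsis thaliana stems kept for 2 days on the synthetic auxin NAA (1-naphthaleneacetic acid) were compared with starch sheath cells of stems kept for 2 days on MS medium (Murashige and Skoog culture medium) alone. The comparison takes 6 of the 24 arrays of the series, 3 of each kind, chosen by their labels. Both groups were wild type. Tissue and culture time were the same in both, so the groups differ by label in NAA only. The labels do not state the NAA concentration.

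Excised stem fragments were placed on split plates, and only the central stretch, which did not touch the medium, was frozen, sectioned and used for laser capture. RNA of the captured cells was amplified before hybridisation to Affymetrix ATH1 arrays, whose probe sets each report 1 transcript or a few. The labels place NAA at 2 days before the cell divisions that form the interfascicular cambium. The remaining groups used below are the cambium of wild-type stems after 5 days on NAA, starch sheath after 5 days on MS, wild-type stem tissue other than starch sheath and vascular bundles after 2 or 5 days on NAA, and untreated samples of the starch sheath and of that stem tissue at the start.

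Auxin acts by bringing a receptor and an Aux/IAA repressor together, which leads to loss of the repressor and frees auxin response factors to switch on their target genes. Among the best known early targets are the Aux/IAA genes themselves, GH3 genes, whose enzymes attach auxin to amino acids, and class II HD-ZIP genes. The starch sheath is the innermost cortex layer of the stem, and in stems that thicken, or that are supplied with auxin, cells in this region between the bundles can turn into a new cambium.

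All values are log2 expression levels as deposited, and a change is the NAA mean minus the MS mean on that scale. On it, 1 unit is a 2-fold difference. The files carry no detection call, so a level near the median of all values, 3.09, is not known to lie above background. Changes were tested with limma over 22746 probe sets and called at a Benjamini-Hochberg adjusted p under 0.05. P-values measure only the spread between arrays of the same group, pooled over the 8 groups and all 24 arrays in the fit. The labels call the 3 arrays of a group biological replicates. The number of plants behind each replicate is not stated in the labels. In bulk captured tissue, fewer cells of a type and less RNA per cell cannot be told apart.

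After 2 days NAA changed 87 probe sets, 0.382% of those tested. Of these, 52 rose, 0.229% of those tested, and 35 fell, 0.154%. The rises ran from 0.63 to 6.11 with a median of 2.00, and 43 of them were at least 2-fold. The falls ran from -0.71 to -4.30 with a median of -1.41, and 26 were at least 2-fold. The NAA and MS arrays did not overlap for any of the 87, against 5105 probe sets, 22.4% of all tested, whose groups did not overlap. Across all probe sets the median change was -0.06.

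Of the 87, 45 could be tied to 1 gene, 30 that rose and 15 that fell. Another 2 that rose match several genes, and 40 have no gene in the annotation used here, 20 in each direction. The probe sets with the largest rise and the largest fall are among those 40 and cannot be named here.

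The count depended on the shared estimate of spread and on single arrays. With only the 6 arrays compared in the fit, 2 probe sets were called. Without NAA replicate 2 there were 10 calls, without MS replicate 2 there were 17 and without MS replicate 1 there were 57.

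**Figure D1:**
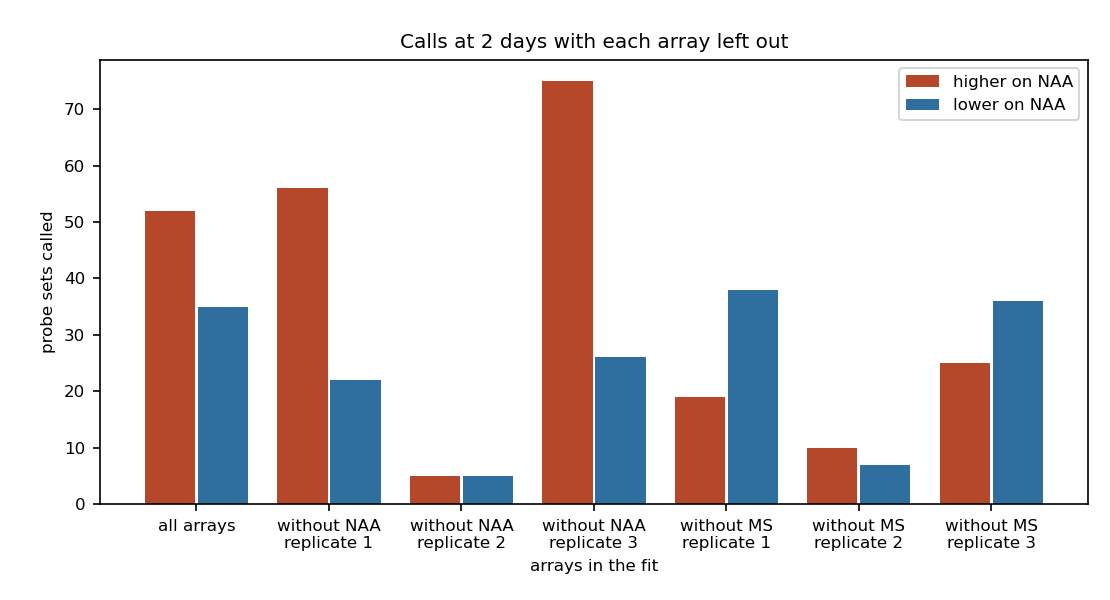
Bars give the number of probe sets called higher and lower on NAA at 2 days with all 24 arrays in the fit and with each of the 6 arrays of the comparison left out in turn. All arrays gave 87 calls, and leaving out NAA replicate 2 or MS replicate 2 left 10 and 17.

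Genes of the auxin pathway stood among the largest named rises. GH3.3, one of the auxin-conjugating enzymes, had levels of 8.37, 9.62 and 6.53 on the NAA arrays (replicates 1 to 3), against 2.56, 2.69 and 2.34 on the MS arrays. Its change was 5.64 ± 0.83 (SE, 3 arrays a group; adjusted p = 0.00537), the largest among the named genes. Its MS levels lay under the median of all values and are not known to be above background, and leaving out 1 array gave changes from 4.92 (without NAA replicate 2) to 6.46 (without NAA replicate 3). The 3 NAA arrays were spread over more than 3 log2 units, yet the lowest of them was far above the highest MS array.

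HAT2, an auxin-induced class II HD-ZIP transcription factor, had levels of 9.49, 10.50 and 8.03 on NAA, against 5.37, 6.18 and 5.31 on MS. The change was 3.71 ± 0.66 (adjusted p = 0.0181). IAA29, an Aux/IAA repressor, had levels of 5.62, 6.86 and 4.28 on NAA, against 2.50, 3.27 and 2.89 on MS. Its change was 2.70 ± 0.56 (adjusted p = 0.0375). For both genes NAA replicate 2 was the highest array and NAA replicate 3 the lowest of the NAA group, and the groups stayed apart.

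AT1G14130, listed here as DAO1, whose enzyme oxidises auxin and so removes it from the active pool, had levels of 4.35, 4.67 and 4.05 on NAA, against 2.89, 2.92 and 3.24 on MS. The rise of 1.34 ± 0.17 was smaller than those above, but its arrays lay close together and its adjusted p was 0.00198. It remained called when any of the 6 arrays was left out. GH3.3 was lost only without NAA replicate 2, where its adjusted p was 0.0521. HAT2 was lost without NAA replicate 2 and without any 1 of the MS replicates, with a highest adjusted p of 0.129. IAA29 was lost in 5 of the 6 cases, with a highest adjusted p of 0.258.

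These 4 genes were the calls among the 22 genes of 8 auxin lists that a named probe set measured, out of 135 entries. The other 18 did not pass, none fell by the test, and the median change of the 22 was 0.05, against -0.06 over all probe sets. Of the Aux/IAA repressors 1 of 7 rose, of the conjugation and oxidation genes 2 of 7, and of the HD-ZIP II and LBD targets 1 of 3. Of all probe sets 0.229% rose. The lists were chosen with earlier results of these data known. None of 2 auxin transport genes and 3 auxin synthesis genes passed. No SAUR gene, auxin response factor or auxin receptor of the lists was measured by a named probe set. Most measured members were dim, with a median level of 2.80. WES1, another auxin-conjugating GH3 gene, had levels of 3.45, 6.45 and 3.54 on NAA, against 3.00, 2.72 and 2.54 on MS, a change of 1.72 that rested on NAA replicate 2 (adjusted p = 0.337). IAA18 stood at 0.49 (adjusted p = 0.294).

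AT1G59740, annotated as the NRT1/PTR family transporter NPF4.3, had levels of 7.73, 9.23 and 5.51 on NAA, against 3.16, 3.63 and 3.23 on MS. It rose by 4.15 ± 0.76 (adjusted p = 0.019). ARL, an organ growth gene related to ARGOS, had levels of 9.16, 8.86 and 7.59 on NAA, against 6.33, 6.58 and 6.28 on MS. It rose by 2.14 ± 0.44 (adjusted p = 0.0384). ARL was the 1 that rose of 4 measured organ growth genes, against 0.229% of all probe sets, the others not passing. Both genes kept the groups apart, as did all 87 calls. ARL lay well above the median of all values on MS as well, while the MS level of AT1G59740 was close to the median of all values. With 1 array left out, each gene remained called in only 1 of 6 fits. The highest adjusted p was 0.141 for AT1G59740 and 0.239 for ARL. ARL was also lost after cyclic loess normalization (adjusted p = 0.0556).

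OSM34, an osmotin of the thaumatin-like defence and osmotic stress proteins, had levels of 5.93, 7.39 and 6.06 on NAA, against 2.74, 3.63 and 2.89 on MS. It rose by 3.37 ± 0.47 (adjusted p = 0.0032). The gene AT1G76470 had levels of 5.37, 6.95 and 5.27 on NAA, against 2.59, 2.76 and 2.58 on MS, and rose by 3.22 ± 0.43 (adjusted p = 0.00276). With AT1G14130, these were the 3 named genes that remained called when any of the 6 arrays was left out. OSM34 was the 1 that rose of 3 measured defence proteins, against 0.229% of all probe sets, and the other 2 did not pass.

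AT1G54410, annotated as the dehydrin HIRD11, one of the hydrophilic proteins known from drought and cold responses, had levels of 10.64, 11.22 and 10.32 on NAA, against 8.38, 7.18 and 7.89 on MS. It rose by 2.91 ± 0.57 (adjusted p = 0.0282). SUFE2, which takes part in iron-sulphur cluster assembly, had levels of 6.96, 8.59 and 6.90 on NAA, against 5.17, 4.55 and 5.35 on MS, a rise of 2.46. Neither gene overlapped between groups, and for both NAA replicate 2 was the highest array. With 1 array left out, each remained called in 2 of 6 fits, with a highest adjusted p of 0.19. SUFE2 was also lost after quantile normalization (adjusted p = 0.091) and cyclic loess (adjusted p = 0.0511).

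Class III peroxidases, secreted enzymes that act in cell wall cross-linking and in handling hydrogen peroxide, held 1 rise and 1 fall among 24 measured genes of 35 listed, and 22 did not pass. Over all probe sets 0.229% rose and 0.154% fell. The median change of the 24 was -0.24, and 4 of them were above 0. AT5G58390, listed as PRX67, had levels of 8.01, 8.83 and 5.60 on NAA, against 3.50, 4.01 and 3.14 on MS, and rose by 3.93 ± 0.74 (adjusted p = 0.0225). AT4G36430, listed as PRX49, had levels of 3.21, 3.16 and 3.15 on NAA, against 6.54, 7.65 and 4.50 on MS, and fell by 3.05 ± 0.51 (adjusted p = 0.0139). The 3 MS arrays of AT4G36430 were spread widely, and on NAA all arrays were near the median of all values.

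Other peroxidases with large differences did not pass. PRXR1 had levels of 9.26, 10.75 and 9.73 on NAA, against 7.07, 6.09 and 6.68 on MS, a change of 3.3 (adjusted p = 0.105). PRX52 had levels of 2.40, 2.16 and 2.55 on NAA, against 3.47, 7.37 and 3.77 on MS, a change of -2.50 (adjusted p = 0.142) in which MS replicate 2 stood far above the other two. AT5G64120 had a change of -1.79 (adjusted p = 0.359), again with MS replicate 2 highest.

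The other named rises were AT1G62480 (3.99), AT4G16260 (2.77), AT4G01870 (2.64), AT1G49200 (2.23), AT2G27830 (2.07), AT3G20340 (1.74), AT1G01640 (1.56), AT1G76010 (1.55), AT5G53900 (1.33), AT1G53180 (1.13), AT4G13200 (1.03), AT1G13810 (0.98), AT3G07750 (0.93), AT2G21130 (0.90), AT1G78110 (0.87) and AT4G25370 (0.75), for which the annotation used here gives only the locus. Those from AT5G53900 on, apart from AT3G07750, and DAYSLEEPER fall outside the naming rule and are given, after their values were seen, so that all 30 are listed. AT3G20340 had levels of 4.76, 4.95 and 4.92 on NAA, against 3.12, 3.02 and 3.25 on MS. Its arrays lay close together within each group, and it was the only named gene called when just the 6 arrays entered the fit (adjusted p = 0.0297). With all groups in the fit it was called with all 24 arrays (adjusted p = 0.0306) and lost when any of the 6 was left out. DAYSLEEPER, a gene derived from a transposase and needed for normal development, rose by 0.71, with levels of 3.68, 3.81 and 3.92 on NAA, against 3.34, 2.78 and 3.17 on MS.

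**Figure D2:**
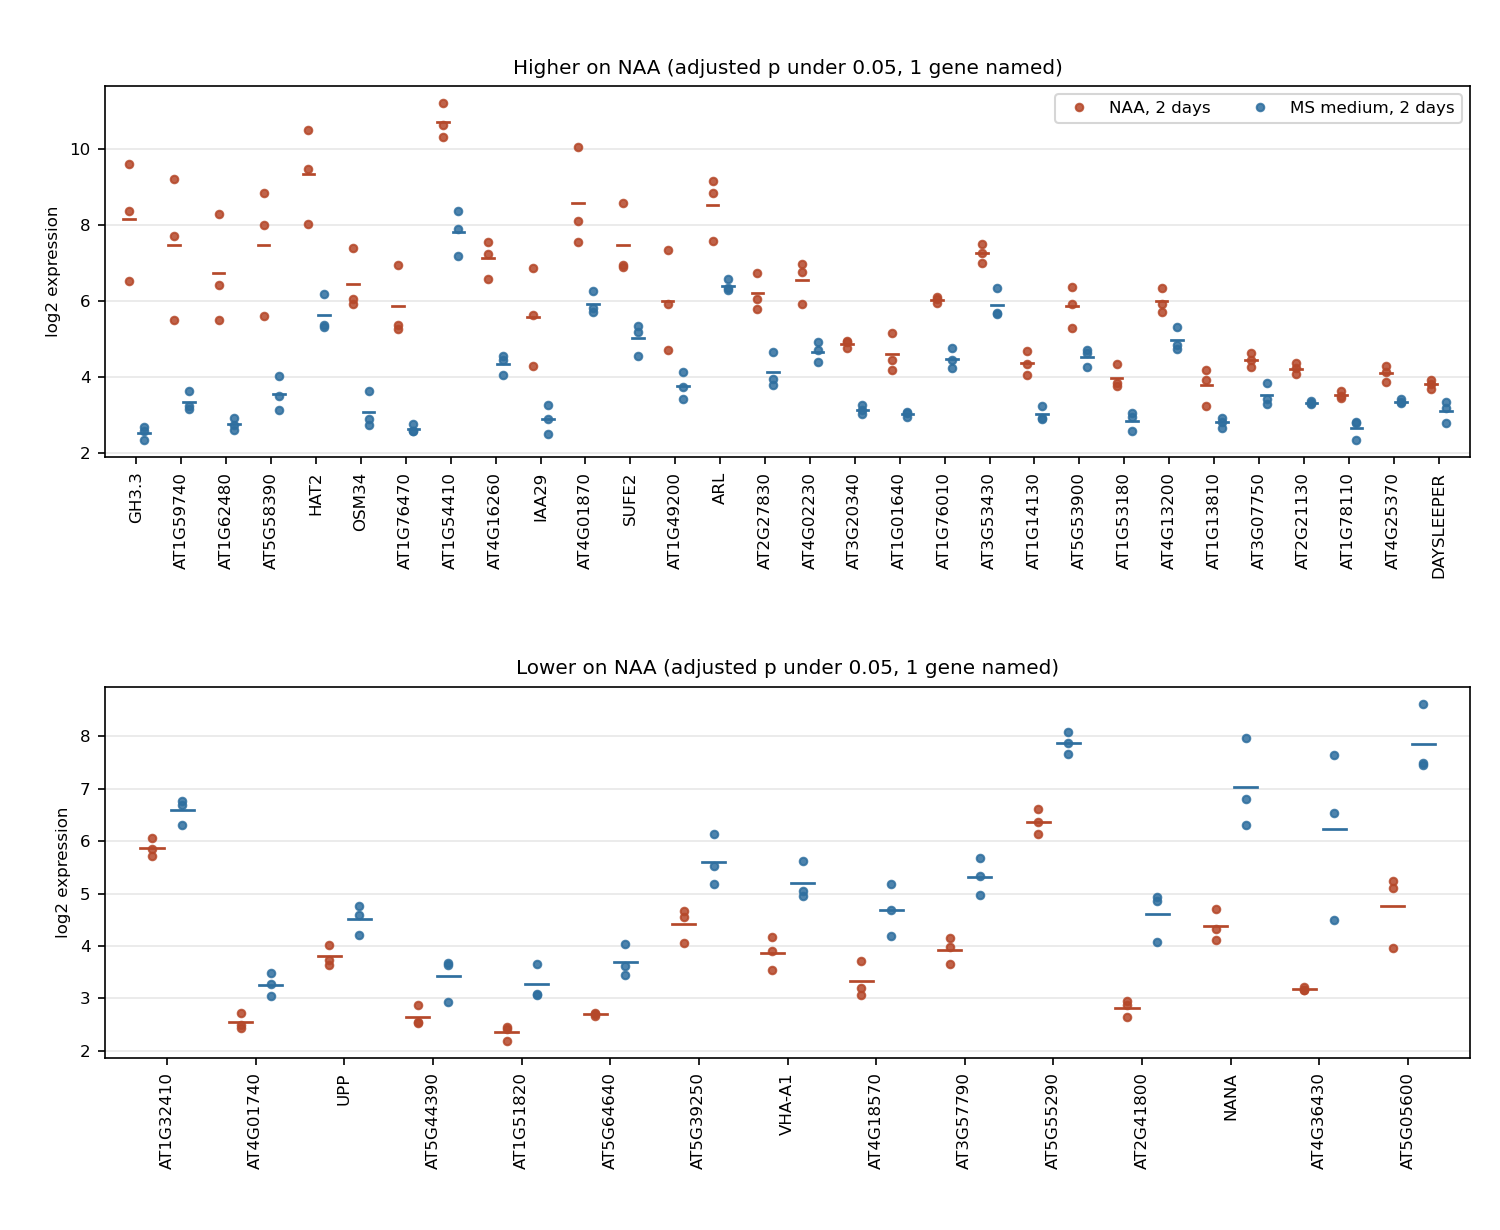
Log2 expression level of the called genes tied to 1 locus (upper panel higher on NAA, lower panel lower), with the 3 NAA arrays and the 3 MS arrays of the starch sheath at 2 days as separate points and bars at the group means. AT1G59740, AT5G58390 and GH3.3 show the widest NAA groups of the genes plotted, and NAA and MS points do not overlap for any gene plotted.

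AT5G05600 showed the largest fall of the named genes. It is listed here as JOX2, one of the oxygenases that hydroxylate jasmonate, the wound hormone, and so inactivate it. Its levels were 5.11, 3.95 and 5.24 on NAA, against 8.62, 7.49 and 7.46 on MS. It fell by 3.09 ± 0.63 (adjusted p = 0.0369), an 8.53-fold difference, and no NAA array reached the lowest MS array. Leaving out arrays ended the call in 5 of 6 cases, with a highest adjusted p of 0.243. A replicate block in the fit ended it as well (adjusted p = 0.0518). AT5G05600 was the 1 that fell of 5 measured jasmonate genes of 32 listed, against 0.154% of all probe sets. The median of the 5 was -0.23, and JRG21, a related oxygenase, had levels of 2.83, 2.55 and 2.42 on NAA, against 3.07, 4.76 and 2.68 on MS (change -0.90, adjusted p = 0.768).

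NANA, an aspartic protease of the chloroplast, had levels of 4.32, 4.11 and 4.71 on NAA, against 6.31, 7.96 and 6.80 on MS, and fell by 2.65 ± 0.43 (adjusted p = 0.0106). It was lost without NAA replicate 2 and without MS replicate 2, with a highest adjusted p of 0.0846. AT2G41800 had levels of 2.95, 2.64 and 2.87 on NAA, against 4.07, 4.93 and 4.85 on MS, and fell by 1.79 (adjusted p = 0.0181). On NAA that gene lay below the median of all values on every array.

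VHA-A1, the subunit a isoform of the vacuolar-type proton pump that sits in the trans-Golgi network, had levels of 4.17, 3.90 and 3.53 on NAA, against 5.63, 5.05 and 4.95 on MS, a fall of 1.34 (adjusted p = 0.0277). AT5G55290, listed as subunit e of the same pump, had levels of 6.36, 6.61 and 6.13 on NAA, against 7.67, 7.87 and 8.07 on MS, a fall of 1.50 (adjusted p = 0.0258). After these values had been seen, a list of all pump subunits was added. Of 28 subunit genes 9 were measured, these 2 fell, against 0.154% of all probe sets, and 7 did not pass. The list was drawn up around the 2 falls, so its count describes its members only. Of the 9, 4 were above 0, and the median change was -0.22. That median was -0.52 after quantile normalization, -0.53 after cyclic loess and 0.15 with the GAPDH control signal as a covariate, and -0.33 to -0.07 with an array left out. Both calls were lost without NAA replicate 2, without NAA replicate 3 and without MS replicate 2. VHA-A1 was also lost after quantile normalization (adjusted p = 0.0953). AT5G55290 was also lost with a limma prior that was robust and followed intensity (adjusted p = 0.0885). VHA-A3, an isoform of subunit a found on the vacuole, had a change of -0.69 (adjusted p = 0.326).

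The remaining named falls were smaller. They were AT3G57790 (-1.39), AT4G18570 (-1.36), AT5G39250 (-1.19), AT5G64640 (-1.0), AT1G51820 (-0.92), AT5G44390 (-0.77), UPP (-0.72), AT4G01740 (-0.71) and AT1G32410 (-0.71). UPP is a uracil phosphoribosyltransferase, an enzyme of pyrimidine salvage, with levels of 3.64, 3.74 and 4.02 on NAA, against 4.21, 4.59 and 4.76 on MS. Of all 35 falls, 14 had an NAA mean under the median of all values, and of the 52 rises, 16 had an MS mean under it.

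No gene of the cambium and vascular list passed at 2 days. Of 26 entries 7 were measured, with a median change of -0.08. PHV, a class III HD-ZIP factor of vascular patterning, had levels of 5.14, 6.73 and 5.32 on NAA, against 4.86, 5.28 and 4.95 on MS (change 0.70, adjusted p = 0.63). MOL1, a receptor kinase that holds cambium activity back, had levels of 2.65, 4.25 and 3.58 on NAA, against 2.77, 3.24 and 3.18 on MS (change 0.43, adjusted p = 0.824). CLE41, the source of a peptide that keeps cambium cells dividing, had levels of 4.74, 4.93 and 4.97 on NAA, against 5.16, 5.96 and 6.14 on MS (change -0.87, adjusted p = 0.459). The PHV and MOL1 arrays overlapped between the groups, and those of CLE41 did not. In all, 2 of the 7 genes did not overlap, both lower on NAA, against 22.4% of all probe sets in either direction. WOX4, PXY, SCR, PIN3, ARR5 and CYCD3;1 have no named probe set and were not analysed here.

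Cell division genes showed no call either. Only 5 of 61 listed were measured, and their changes ran from -0.01 to 0.31. None of 16 measured wall-loosening genes of 38 passed, with changes from -1.12 to 0.77 and a median of -0.12. None of 11 measured low-oxygen genes passed, with a median of -0.02. The single measured ethylene gene, EIN3, stood at 0.90 (adjusted p = 0.716), and none of 2 cytokinin and 2 gibberellin genes passed. No gene of the brassinosteroid and strigolactone, wound healing or senescence lists was measured. Over the 28 lists first drawn up, 118 of 577 genes were measured, 7 rose, 2 fell and 109 did not pass. Of all probe sets 0.229% rose and 0.154% fell. The median change was -0.06 for the 118 and also for all probe sets. The lists were chosen with earlier results of these data known, so these counts describe their members only.

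Photosynthesis, starch and ribosomal genes had medians above 0. Among 11 measured photosynthesis genes the median change was 0.44 and 9 were above 0, but none passed. LHCB4.1, an antenna protein of photosystem II, had levels of 8.28, 8.53 and 8.76 on NAA, against 6.89, 7.39 and 7.32 on MS (change 1.32, adjusted p = 0.32). For 4 starch genes the median was 0.52 and none passed. Cytosolic ribosomal proteins, a list added after values had been seen, had 119 measured genes of 206, a median of 0.48 and 96 genes above 0, of which 2 passed. These were AT4G02230, listed as RPL19C, at 5.93, 6.77 and 6.96 on NAA, against 4.70, 4.39 and 4.92 on MS (1.89), and AT3G53430, listed as RPL12B, at 7.0, 7.51 and 7.28 on NAA, against 5.67, 5.69 and 6.33 on MS (1.36). Of all probe sets 0.229% rose. The AT3G53430 call was lost after quantile normalization (adjusted p = 0.249) and cyclic loess (adjusted p = 0.158). With 1 array left out, AT3G53430 remained called in 2 of 6 fits and AT4G02230 in 1.

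The change moved with brightness over all probe sets. Its median was -0.09 for the 10554 probe sets with a mean level under 3 and 0.47 for the 296 with a mean of 8 or more. After quantile normalization of the deposited values the median of the brightest class was -0.01, that of the photosynthesis genes 0.10 and that of the ribosomal genes 0.15, and after cyclic loess the photosynthesis and ribosomal medians were 0.11 and 0.20. The NAA arrays spread more widely over probe sets, with SDs of 1.4 to 1.54 against 1.29 to 1.38 on MS.

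The control probe sets for RNA length differed in opposite directions. The GAPDH signal, taken as 3' minus 5' probe sets, was 6.14 to 6.67 on NAA against 6.71 to 7.43 on MS, and the actin signal taken the same way was 5.44 to 6.28 on NAA against 4.99 to 5.16 on MS. For both, and for the SDs, the exact permutation p was 0.1 (two-sided), the smallest that 3 against 3 arrays allow. With the GAPDH signal as a covariate there were 1782 calls among the 22746 probe sets, and 1341 of them were higher on NAA. The covariate's slope within groups is carried there across the gap between the NAA and MS ranges, which do not overlap. Its values therefore do not separate the GAPDH signal from NAA. In that fit the median of the brightest class was 1.22. The median of the ribosomal genes was 0.97 with 40 of 119 rising, and that of the photosynthesis genes 0.70 with 2 of 11 rising. The part of the actin signal in the results was not tested.

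**Figure D3:**
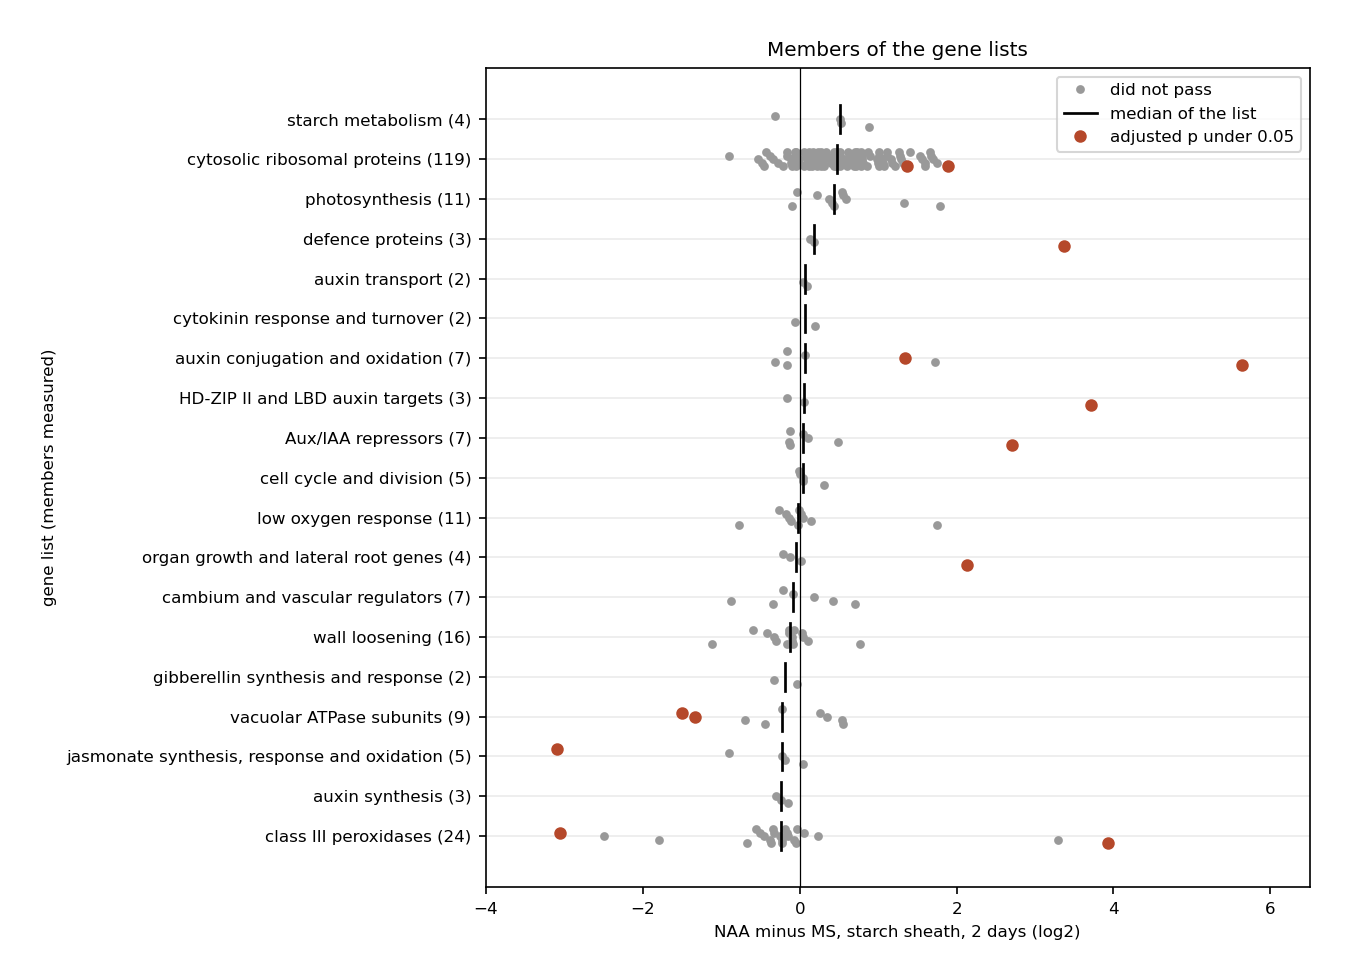
Log2 change at 2 days, NAA minus MS in the starch sheath, for the members of each gene list with 2 or more measured genes, 1 point a gene, with called genes in red and a bar at each list's median. The auxin lists hold 4 called genes beside a cluster near 0, the cambium and cell division lists hold none, and most ribosomal genes lie above 0 around a median of 0.48.

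The starch sheath label could not be checked well. Of 5 marker genes of the starch sheath or endodermis only JKD was measured, at 3.12, 3.12 and 2.92 on NAA, against 2.95, 2.84 and 3.33 on MS, all close to the median of all values. None of the listed markers of epidermis, xylem and fibre, or phloem had a named probe set, so the share of those cells in the captured tissue was not tested. Replicates correlated at 0.953 to 0.963 within NAA and 0.938 to 0.960 within MS, against 0.893 to 0.950 between the groups (Pearson, over probe sets).

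NAA replicate 2 was the highest NAA array for 45 of the 52 rises, 86.5%, against 45.6% of all probe sets with a change above 0. NAA replicate 3 was the lowest NAA array for 30 of the 52. Among the 35 falls MS replicate 2 was the highest MS array for 21, 60%, against 43.6% of all probe sets with a change below 0. The median SD of the rises was 0.556 on NAA and 0.265 on MS, and that of the falls 0.200 on NAA and 0.356 on MS. By these medians the group with the higher level was the more variable in both directions.

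Whether the 2-day calls differed between auxin and medium at 5 days was read on arrays that the 2-day comparison had not used, although both share the estimate of spread. At 5 days the auxin samples are labelled cambium and the MS samples starch sheath, so that tissue and NAA cannot be told apart there. Of the 52 rises, 13 were also called higher at 5 days, 25%, against 2.01% of all probe sets called higher, 0 were called lower, and 39 were not called. Of the 35 falls, 6 were also called lower, 17.1%, against 1.48% of all, 1 was called higher and 28 were not called. The median 5-day change was 0.57 for the rises and -0.10 for the falls, against 0.01 for all probe sets.

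GH3.3 rose by 4.58 ± 0.83 at 5 days (adjusted p = 0.00286), HAT2 by 3.11 ± 0.66 (adjusted p = 0.00989) and ARL by 3.77 ± 0.44 (adjusted p = 5.5e-05). AT1G59740 rose by 6.42 ± 0.76 (adjusted p = 5.51e-05), with a mean of 9.29 in the cambium on NAA and 2.87 in the starch sheath on MS. OSM34 rose by 2.72, AT1G76470 by 3.24, AT4G16260 by 2.85, AT5G58390 by 2.78 and DAYSLEEPER by 0.55, and all of these passed. The 5-day change of IAA29 was 1.33 (adjusted p = 0.283) and that of the dehydrin gene AT1G54410 was 0.87 (adjusted p = 0.64), so neither passed.

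Among the named falls, AT5G05600 fell by 4.72 at 5 days (adjusted p = 0.000174), with a mean of 4.93 in the cambium on NAA and 9.65 in the starch sheath on MS. AT1G51820 fell by 0.62 (adjusted p = 0.0405). For NANA the 5-day change was -0.56 (adjusted p = 0.747), for VHA-A1 0.04 (adjusted p = 0.996) and for AT5G55290 -0.02 (adjusted p = 0.998). Lists without a call at 2 days held calls at 5 days, where tissue differs as well. PHV rose by 1.63, and 9 of 11 low-oxygen genes rose (median of the 11, 2.72). Among 11 photosynthesis genes 5 fell and 1 rose (median of the 11, -1.45). Falls were also called for 2 of 4 starch genes and 1 of 16 wall-loosening genes. The shares over all probe sets at 5 days were 2.01% higher and 1.48% lower.

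**Figure D4:**
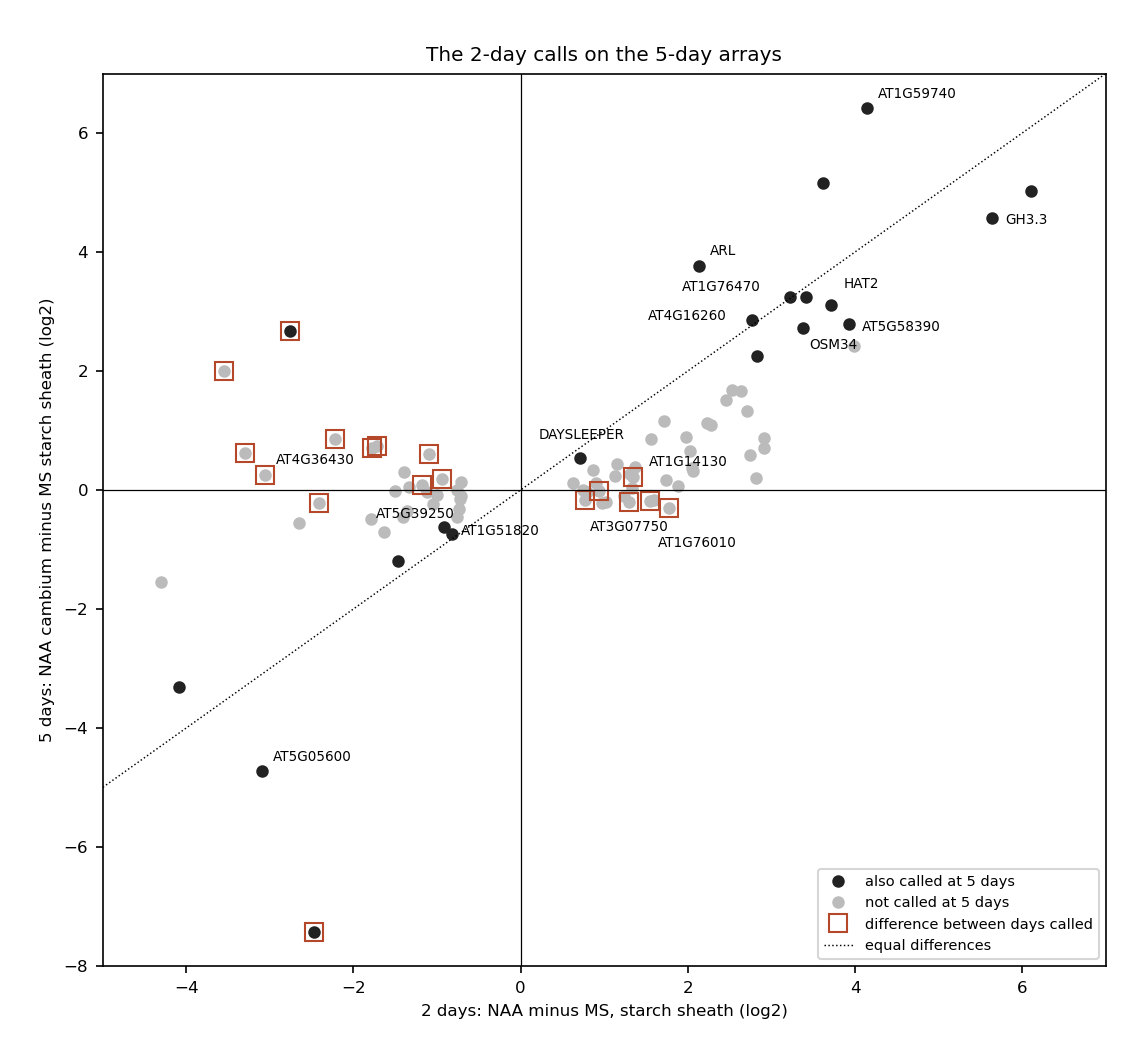
Log2 change at 5 days (cambium on NAA minus starch sheath on MS) against the log2 change at 2 days (starch sheath, NAA minus MS) for the 87 probe sets called at 2 days; dark points were also called at 5 days, and squares mark a called difference between the days. The upper right holds GH3.3, AT1G59740, HAT2 and ARL, AT5G05600 lies at the lower left, and many of the falls lie near 0 on the 5-day axis.

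The difference between the 2 comparisons was tested directly as the 5-day change minus the 2-day change. That test uses the same 2-day arrays as the calls, and selection on the 2-day change favours a smaller change at 5 days. It called 230 probe sets, 1.01% of those tested, and 18 of the 87 were among them. All 6 rises so called had a smaller or opposite change at 5 days, and 11 of 12 falls did. The gene AT1G14130 rose by 1.34 at 2 days and stood at 0.22 at 5 days, a difference of -1.12 ± 0.24 (adjusted p = 0.0292). For AT4G36430, the peroxidase that fell at 2 days, the 5-day change was 0.26 and the difference 3.31 ± 0.72 (adjusted p = 0.0309). For GH3.3 (-1.06, adjusted p = 0.856), HAT2 (-0.61, adjusted p = 0.917), AT1G59740 (2.27, adjusted p = 0.452) and AT5G05600 (-1.63, adjusted p = 0.558) the difference did not pass.

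Set beside all 8 groups, the NAA starch sheath at 2 days had the highest group mean for 40 of the 52 rises, 76.9%, against 26.7% of all probe sets with a change above 0, and the MS starch sheath at 2 days had the highest for 31 of the 35 falls, 88.6%, against 16.8% of those with a change below 0. The probe sets were called on those arrays, so these shares describe them only. The untreated starch sheath was nearer to MS than to NAA for 47 of the rises, 90.4%, against 59.3% of all probe sets with a change above 0. It was nearer to NAA for 33 of the falls, 94.3%, against 26.7% of those below 0, and the MS mean lay above the untreated mean for all 35 falls, against 37.4%. The calls were made on these same NAA and MS arrays, and the comparison shares cover changes of any size. These counts therefore also describe the called probe sets only. Of the 3 untreated starch sheath arrays, 2 had narrow spreads, with SDs of 1.00 and 0.955. With untreated replicate 1 alone the counts were 41 rises (78.8%, against 49.7%), 30 falls (85.7%, against 61.1%) and 34 falls (97.1%, against 72.9%), so the falls stood closer to the share over all probe sets.

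NANA averaged 4.38 ± 0.31 on NAA and 7.03 ± 0.85 on MS at 2 days (SD, n = 3 each), and 3.95 ± 0.87 in the untreated starch sheath. AT4G36430 averaged 3.18 ± 0.03 on NAA and 6.23 ± 1.60 on MS, and 3.50 ± 0.42 untreated. For these falls the MS samples at 2 days, on which they were called, were the group that stood apart. At 5 days on MS the means were 4.19 and 3.65.

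GH3.3 averaged 8.17 ± 1.55 on NAA, 2.53 ± 0.18 on MS and 4.89 ± 0.86 untreated, and HAT2 averaged 9.34 ± 1.24 on NAA, 5.62 ± 0.49 on MS and 7.79 ± 0.69 untreated. Both genes were thus lowest on MS, with the untreated starch sheath in between. ARL averaged 8.53 ± 0.83 on NAA and 6.40 ± 0.16 on MS, and the untreated mean of 3.71 ± 0.39 lay below both. AT1G59740 stood at 7.49 ± 1.87 on NAA, against 3.34 ± 0.25 on MS and 3.08 ± 0.09 untreated. AT5G05600 averaged 4.77 ± 0.71 on NAA and 7.86 ± 0.66 on MS, with the untreated mean of 6.03 ± 0.26 between them. Untreated means were not tested against either group here.

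Stem tissue without starch sheath and bundles, after 2 days on NAA, was nearer to the NAA starch sheath than to the MS starch sheath for 37 of the 52 rises, 71.2%, against 57.1% of all probe sets with a change above 0, and for 31 of the 35 falls, 88.6%, against 67.5% of those below 0. The probe sets were called on those starch sheath arrays, so these shares too describe them only. In that tissue ARL averaged 9.02 ± 0.74, HAT2 8.25 ± 1.28 and GH3.3 6.34 ± 2.01. AT5G58390 averaged 3.71 ± 0.59 there, against 7.48 ± 1.68 in the NAA starch sheath and 3.55 ± 0.44 in the MS starch sheath. No MS stem samples were analysed here, so these levels give no auxin effect in that tissue.

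**Figure D5:**
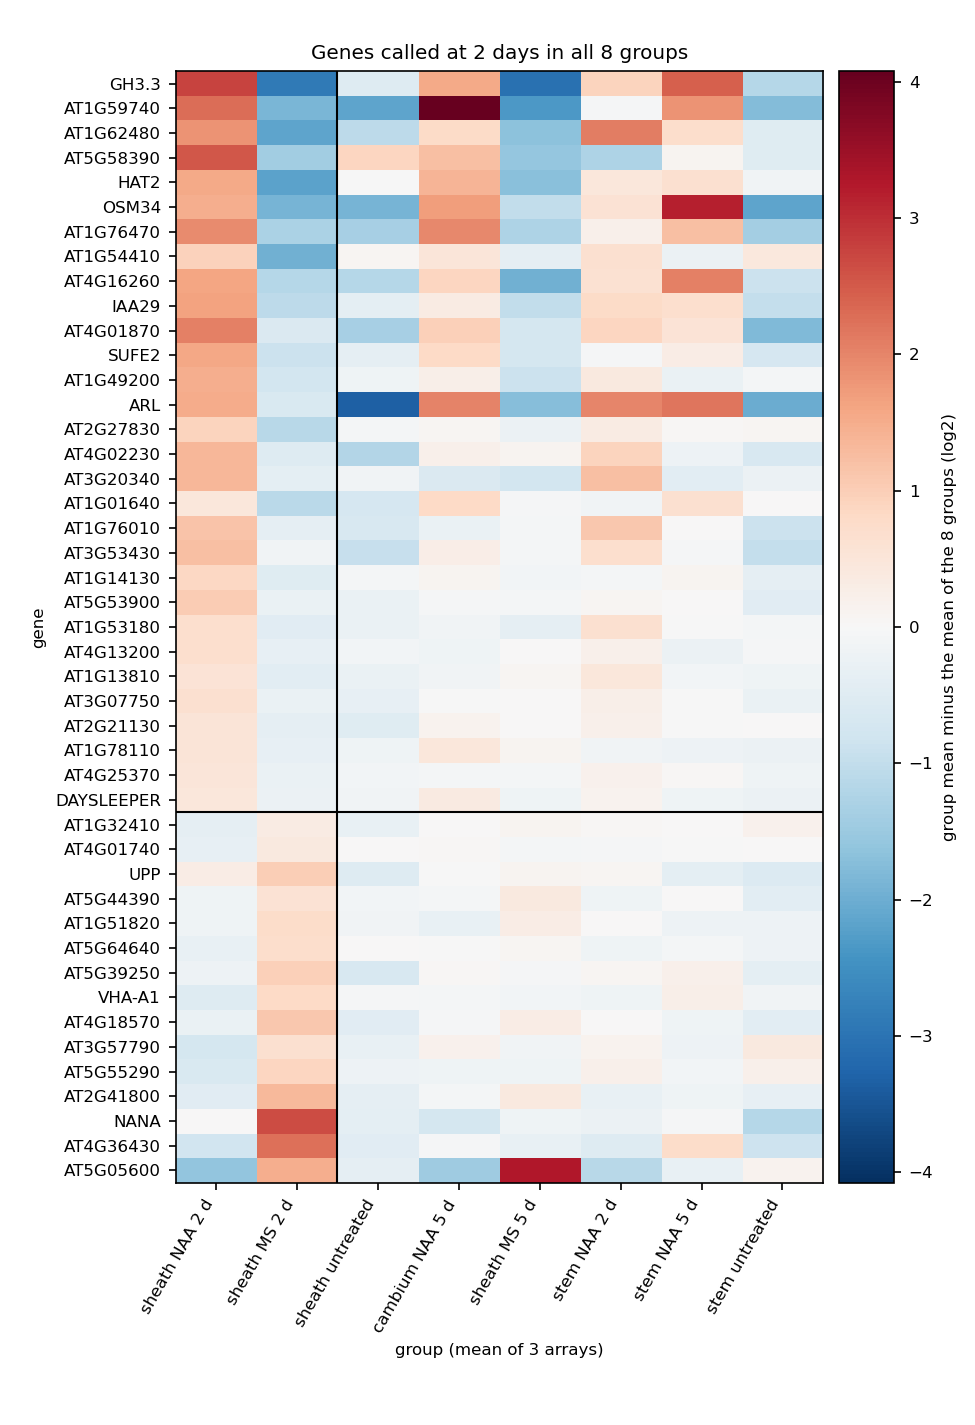
Heat map of the called genes tied to 1 gene (down the page, rises above the line and falls below it) in the 8 groups of the series (across), coloured by each group's mean over 3 arrays minus the mean of the 8 groups, on the log2 scale. GH3.3 and HAT2 are lowest on MS, while NANA and AT4G36430 are highest in the MS starch sheath at 2 days and lower in the other groups.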

How the data were processed

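The authors deposited log2 expression values of 24 Affymetrix ATH1 arrays, 8 groups of 3. RMA and limma appear in the submitters' processing notes with no version, and the base of the logarithm was taken from RMA's usual scale. Each of the 22810 probe sets holds 1 value per array, and 64 controls were left out, which leaves 22746. Platform annotation gives 13513 probe sets 1 gene, 503 several and 8730 none, so unnamed calls are counted only. A gene with more than 1 probe set is represented by its brightest.

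One mean per group was fitted over all 24 arrays with limma 3.58.1 (R 4.3.3, lmFit, eBayes, two-sided, Benjamini-Hochberg adjustment). The code was tested on simulated data. Named genes were the 20 largest rises and falls tied to 1 gene, called list members, up to 6 members of each list with the smallest p, a short set of auxin, cambium and related genes, and up to 6 genes called in the difference between times. Members and lists were chosen with earlier results of these data known. Replicate numbers were not used to pair the samples. Deviations of same-numbered arrays at 2 days correlated at -0.06, -0.10 and 0.09. At 5 days they correlated at -0.25, 0.25 and 0.39, and those of arrays with different numbers at -0.47 to 0.36. The alternatives were other normalizations, filters, weights, priors and covariates, a replicate block, and leaving arrays out. The number of arrays limits precision.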

Additional observations from a re-analysis of the deposited data

Results flagged for a closer look

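For 5 genes tied to 1 locus and called at 2 days, the change on NAA differed between 5 and 2 days by a test of the difference itself (limma, 5-day change minus 2-day change). The difference was -1.73 for AT1G76010 (adjusted p = 0.0462), -1.12 for AT1G14130 (adjusted p = 0.0292) and -0.96 for AT3G07750 (adjusted p = 0.0462). Each of these 3 rose at 2 days and had a 5-day change between -0.19 and 0.22. The difference was 1.28 for AT5G39250 (adjusted p = 0.048) and 3.31 for AT4G36430 (adjusted p = 0.0309), both of which fell at 2 days and had 5-day changes of 0.09 and 0.26. The test uses the same 2-day arrays on which these genes were called, and that selection favours a smaller change at 5 days. Tissue also differs between the 5-day groups, and the part of tissue in these differences cannot be told apart from that of time.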

How the results depend on the processing

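The 2-day comparison gave 87 calls. Alternatives that moved this count by more than 1.5 times gave 2 with only the groups compared in the fit, 149 after cyclic loess, 225 without the 3 narrow untreated arrays, 495 with array weights and 1782 when GAPDH 3' excess entered as covariate. Leaving out 1 array gave 10 to 101. Quantile normalization gave 115 and the filter on dim probe sets 106. The share of calls higher on NAA was 59.8%, 75.3% with the GAPDH covariate and 33.3% to 74.3% with an array left out. The 5-day comparison gave 794 calls, 3440 with array weights and 406 to 717 with an array left out. The difference between times gave 230 calls, 428 after cyclic loess, 964 with array weights, 1420 with the GAPDH covariate, 583 without the narrow arrays and 85 to 308 with an array left out. With the replicate number as a block the counts were 92, 840 and 246, and the labels do not say what arrays of the same number share. No named gene changed direction while called. Of 37 named genes called at 2 days, 31 remained called with the replicate block, 1 with only the groups compared, 3 without NAA replicate 2, 6 without MS replicate 2 and 37 with array weights. Of the 45 calls tied to 1 gene, 3 remained called whichever array was left out. The causes of these changes were not tested.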
